A study of Homo sapiens with 32 samples.

Results

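The response of RH4 cells to A485 was described from 8 of the 32 samples of the series. RH4 is an established human alveolar rhabdomyosarcoma line, a childhood muscle-lineage tumour driven by the fusion protein PAX3-FOXO1. The 8 were the RNA-seq libraries of cells given A485 or a control, chosen by their labels alone, out of 20 RNA-seq libraries in all. A485 was given at 100 nM and at 1 µM, each for 2 h and for 6 h, which makes 4 treated libraries. The 4 controls were DMSO at 2 h and 6 h and NT, an abbreviation left unexplained in the labels, at 2 h and 6 h. All cells were unmodified RH4 grown in the same serum-containing medium. Each condition had 1 library, so doses, times and the 2 kinds of control stood in for replicates, and nothing in the labels says which libraries came from separate cultures. p-values therefore measure the spread between these libraries only.

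CBP (gene CREBBP) and p300 (gene EP300) are closely related lysine acetyltransferases. They are recruited by transcription factors to enhancers and promoters, acetylate histones and other proteins there, and are read out by the transcription machinery. A485 occupies the catalytic site that both enzymes share, so it blocks acetylation and leaves the proteins in place. In alveolar rhabdomyosarcoma the fusion protein works at strong enhancers together with the muscle factor MYOD1, the muscle factor MYOG and the MYC-family protein MYCN. Genes fed by such enhancers, and short-lived transcripts of signalling pathways, are classic readouts of acetyltransferase activity.

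Total expected counts over coding genes ran from 14657063 to 16661051 in the 8 libraries. All values below are in CPM (counts scaled to a common library total) unless another unit is named. The markers of the line had 1 of 9 members under 1 CPM, CDH3. Their summed level was 2585 to 2808 CPM in the controls and 1464 to 2533 CPM with A485. Epithelial, blood and endothelial marker lists summed to at most 4.5 CPM in any library, with EPCAM, KRT19, PTPRC and HBB at 0 in all 8. Of 8 neural markers, 4 (SNAP25, ELAVL4, STMN2 and NEUROD1) were at 0 and DCX passed 10 CPM, and of 8 fibroblast markers PDGFRB, COL1A1, COL3A1 and TAGLN passed 10 CPM. The fibroblast sum was 2773 to 2880 CPM in the controls and 2324 to 2894 CPM with A485. Of the 5 fibroblast markers tested, PDGFRB, DCN and TAGLN fell at 1 µM, by 0.77, 0.94 and 0.30 in log2, and COL1A1 and COL3A1 did not pass. Of the 2 neural markers tested, DCX fell by 0.41 and TUBB3 did not pass. None of the 4 stayed called without 1 µM 6 h. These markers moved with the muscle and mesenchyme genes below, and their part in those results was not tested. In bulk RNA, fewer cells with a transcript and less transcript per cell cannot be told apart.

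Changes ran in both directions and their number depended on the dose. Over both doses, edgeR's quasi-likelihood test with a time term called 326 genes lower and 400 higher of 12720 tested (5.71% called, 2.56% lower and 3.14% higher) at a Benjamini-Hochberg adjusted p under 0.05. With the doses as separate levels, 1761 genes were lower and 1728 higher at 1 µM among 12919 tested (27.0% called, 13.6% lower and 13.4% higher). At 100 nM, 44 were lower and 6 higher (0.387% called, 0.341% lower and 0.0464% higher). The 2 doses were set against the same 4 controls. Of the genes called at 1 µM, 406 fell and 210 rose by at least 2-fold. The median log2 change was -0.572 for those lower and 0.472 for those higher.

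The count over both doses was not stable. It was 0 by edgeR without the DMSO 2 h library (3495 genes at an unadjusted p under 0.05), without DMSO 6 h (2953), without NT 6 h (2829) and without 1 µM 2 h (3313). It rose to 1133, 1660 and 1372 without 1 µM 6 h, 100 nM 2 h and 100 nM 6 h. DESeq2, run on all 8 libraries, called 1939. The 726 genes kept their sign in each of these fits. With all 8 libraries the smallest adjusted p over both doses by edgeR was 0.0400. Several genes share that value, so where it is given below it does not rank them. On the deposited TPM scale the median of all genes was 0.263 against 0.0171 in log2 on counts, and 356 genes were lower and 4488 higher there. Coding genes held 39.3% to 44.5% of TPM in the controls and 43.0% to 53.9% with A485. At 1 µM the total was 1308 without 1 µM 6 h, 1945 without DMSO 6 h and 1933 without NT 6 h, and 1091 with all 20 libraries in the fit. The account below leads with the 1 µM contrast and gives the value over both doses beside it. The gene lists were chosen with earlier results of these data known. Their shares beside those of all genes therefore describe the lists and are no independent support. Where edgeR called 0 members of a list in a direction at 1 µM, DESeq2 also called 0, and at most 3 members (S phase, lower) had an unadjusted p under 0.05.

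The genes of the enzymes themselves rose modestly with all 8 libraries in the fit. EP300 stood at 271, 244, 313 and 247 CPM in DMSO 2 h, DMSO 6 h, NT 2 h and NT 6 h. It stood at 353 and 398 CPM with 1 µM A485 at 2 h and 6 h, and at 327 and 346 CPM with 100 nM. All 4 A485 libraries lay above all 4 controls, as they did for 10.6% of genes tested. Over both doses the log2 change was 0.35 ± 0.08 (SE, adjusted p = 0.0465), and at 1 µM it was 0.39 ± 0.09 (adjusted p = 0.0156). CREBBP was 469 to 578 CPM in the controls and 601 to 756 CPM with A485, and its log2 change at 1 µM was 0.33 ± 0.10 (adjusted p = 0.0349). Of 18 lysine acetyltransferases tested at 1 µM, 5 rose and 0 fell, or 27.8% higher against 13.4% of all genes. The other 3 were NCOA3, KAT2A and KAT14, by 0.36, 0.33 and 0.27 in log2. EP300 and CREBBP both lost their call at 1 µM by edgeR without DMSO 6 h, NT 6 h or 1 µM 6 h and with all 20 libraries, and 1 of them without DMSO 2 h or either 100 nM library. Over both doses EP300 lost its call without DMSO 2 h, DMSO 6 h, NT 6 h or 1 µM 2 h. The 5 became 3 without DMSO 2 h or either 100 nM library, 1 without 1 µM 6 h, DMSO 6 h or NT 6 h, and 0 with all 20. These are transcript levels and do not measure the enzymes' activity.

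MYCN and MYC, which encode growth-driving transcription factors, were among the deepest falls at 1 µM. MYCN was 67.1, 73.2, 61.7 and 70.0 CPM in DMSO 2 h, DMSO 6 h, NT 2 h and NT 6 h. It was 30.9 and 35.2 CPM with 100 nM at 2 h and 6 h, and 6.60 and 7.72 CPM with 1 µM. The controls and the 2 doses did not overlap, and at each dose the 6 h value was not below the 2 h value. MYCN was 10.2-fold lower at 1 µM (log2 -3.34 ± 0.10 SE, adjusted p = 2.32e-07) and 2.1-fold lower at 100 nM (log2 -1.07 ± 0.08, adjusted p = 0.000922).

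MYC took the same steps. Its controls ran from 63.4 to 75.6 CPM, its 100 nM libraries stood at 37.4 and 43.7 CPM, and its 1 µM libraries at 5.76 and 5.54 CPM. MYC was 13.2-fold lower at 1 µM (adjusted p = 3.50e-07) and 1.77-fold lower at 100 nM (adjusted p = 0.0102). With both doses as 1 level neither gene passed (adjusted p = 0.0543 for MYCN and 0.0922 for MYC). The difference between the doses was -2.27 ± 0.11 for MYCN and -2.90 ± 0.14 for MYC (adjusted p = 1.43e-05 for both). MYCL, another family member, fell over both doses by 1.16 ± 0.22 in log2 (adjusted p = 0.0400). Of 12 tested members of the MYC and MAX network, 3 fell and 2 rose at 1 µM. The share that rose, 16.7%, was near the 13.4% of all genes. The share that fell was above the 13.6% of all genes. The risers were MXD1 and MXD4, which encode partners of MAX that oppose MYC at its sites. MAX itself changed by 0.02.

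**Figure D1:**
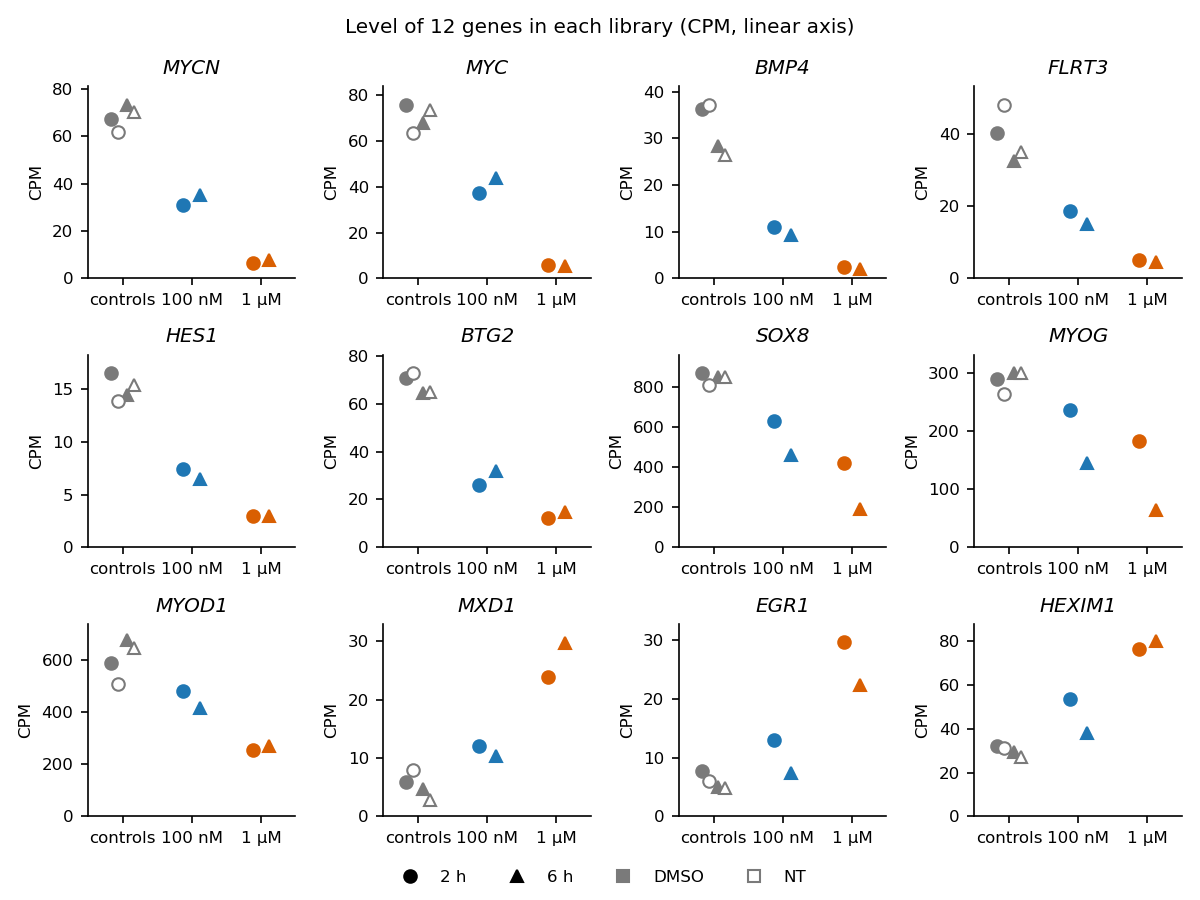
CPM of 12 genes in each of the 8 libraries on a linear axis from 0, with controls in grey (DMSO filled, NT open), 100 nM A485 in blue and 1 µM in orange, and circles for 2 h and triangles for 6 h. MYCN, MYC, BMP4 and FLRT3 step down with dose at both times, SOX8 and MYOG are lower at 6 h than at 2 h with A485, and MXD1, EGR1 and HEXIM1 are highest at 1 µM.

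Genes that define the tumour line fell at 1 µM. Of the 12 genes fixed for the identity of the line, EP300 and CREBBP included, 10 were lower and 2 higher at 1 µM, against 13.6% and 13.4% of all genes. The 2 higher were EP300 and CREBBP. The 10 and 2 became 8 and 0 without DMSO 6 h or NT 6 h, 7 and 0 without 1 µM 6 h, and 3 and 0 with all 20 libraries in the fit. PAX3 and FOXO1 are the genes joined in the fusion, and their counts do not tell the fusion transcript from the normal ones. PAX3 was 72.6 to 78.0 CPM in the controls, 66.0 and 59.9 CPM at 100 nM, and 45.01 and 41.27 CPM at 1 µM for 2 h and 6 h. It was 1.87-fold lower at 1 µM (adjusted p = 0.000115). FOXO1 was 169 to 186 CPM in the controls, 133 and 142 CPM at 100 nM, and 80.8 and 74.0 CPM at 1 µM. It was 2.46-fold lower at 1 µM (adjusted p = 1.13e-05).

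MYOD1 and MYOG switch on the muscle programme. MYOD1 was 590, 677, 508 and 648 CPM in DMSO 2 h, DMSO 6 h, NT 2 h and NT 6 h. It was 482 and 418 CPM at 100 nM and 256 and 272 CPM at 1 µM, for 2 h and 6 h. All 4 A485 libraries lay below the controls. MYOG held at 264 to 300 CPM in the controls and reached 183 CPM at 2 h and 65.0 CPM at 6 h with 1 µM, and 235 and 146 CPM with 100 nM. SOX8, a SOX-family factor that is high in this line, followed the same course: 809 to 870 CPM in the controls, 422 and 191 CPM at 1 µM, and 629 and 458 CPM at 100 nM. At 1 µM the log2 changes were -1.29 ± 0.12 for MYOD1, -1.42 ± 0.30 for MYOG and -1.62 ± 0.22 for SOX8 (adjusted p = 9.75e-05, 0.00885 and 0.00119). None of the 3 passed over both doses.

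Of 26 tested PAX3-FOXO1 targets, 21 fell and 0 rose at 1 µM, or 80.8% lower against 13.6% of all genes, with a median log2 change of -0.81 against 0.02. The 21 became 14 without 1 µM 6 h and 6 with all 20 libraries in the fit. Over both doses 4 fell and 0 rose, or 15.4% lower against 2.56% of all genes. The 4 were FOXF1, DUSP4, RASSF4 and ASS1. FOXF1, a forkhead factor of mesenchyme, went from 77.2 to 85.8 CPM in the controls to 38.4 and 38.2 CPM at 1 µM. TFAP2B fell by 1.91 in log2 at 1 µM. FGFR4, the growth factor receptor that marks these tumours, was 757 to 812 CPM in the controls, 745 and 533 CPM at 1 µM and 801 and 626 CPM at 100 nM. The 100 nM library of 2 h lay inside the range of the controls and the other 3 below it. Its log2 change at 1 µM was -0.38 ± 0.11 (adjusted p = 0.0281). ALK and IGF1R did not pass, at -0.33 and -0.25.

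Of 24 myogenic factors, 18 fell and 1 rose at 1 µM, and 2 fell and 1 rose over both doses. The 18 became 7 with all 20 libraries in the fit, and the 1 riser became 2 without 1 µM 2 h. SIX2 and SIX4, homeobox factors of early muscle, fell by 1.503 and 1.45 in log2. SIX2 was 109 to 115 CPM in the controls, 81.9 and 65.5 CPM at 100 nM and 53.4 and 32.2 CPM at 1 µM. MYMX, which encodes a small protein for myoblast fusion, was 23.9 to 28.1 CPM in the controls, 18.6 and 15.0 CPM at 100 nM and 10.6 and 9.46 CPM at 1 µM. EYA3 was the riser, by 0.30 ± 0.06 (adjusted p = 0.00946). MYMX, SIX2 and EYA3 were also the 3 called over both doses.

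Sarcomere and other muscle structure genes moved less. Of 31 tested, 12 fell and 0 rose at 1 µM, or 38.7% lower against 13.6% of all genes, and the median was -0.35. That count was 1 without 1 µM 6 h, 7 without NT 6 h and 8 without DMSO 6 h, and 2 rose without NT 2 h. ACTC1, the cardiac-type actin of immature muscle, was 1390 to 1581 CPM in the controls, 1271 and 858 CPM at 1 µM and 1393 and 1022 CPM at 100 nM. Its 100 nM library of 2 h lay inside the range of the controls. TNNI1 (slow troponin I) and MYL4 (an embryonic myosin light chain) fell by 0.47 and 0.50. MYH3, TPM1 and TPM2 did not pass, at -0.07, -0.20 and -0.19. On TPM the median of this list over both doses turned from -0.25 to 0.03, below the 0.263 of all genes.

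**Figure D2:**
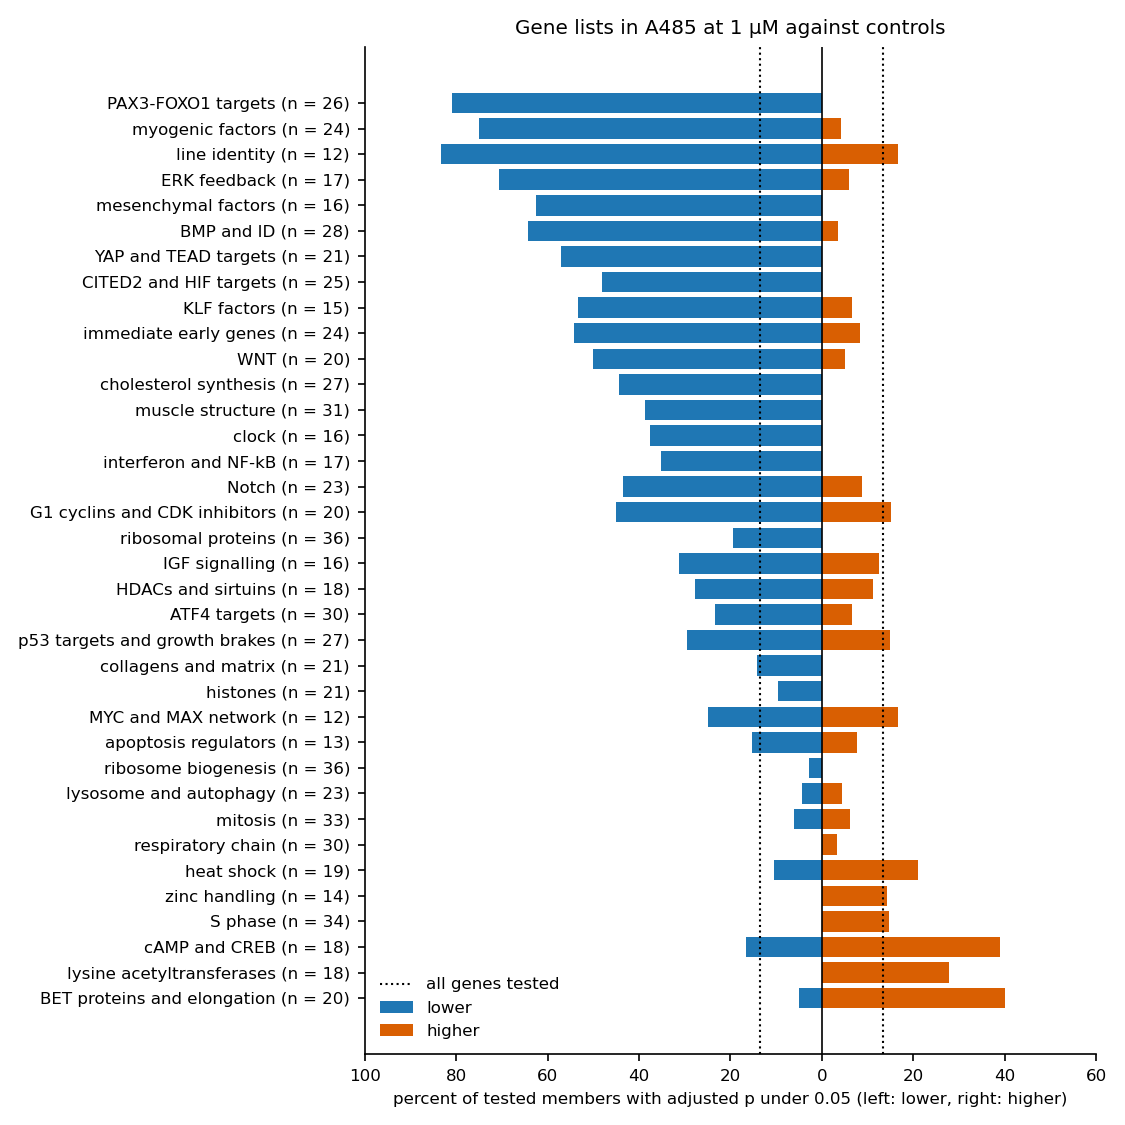
Percent of each gene list's tested members (n in brackets) with adjusted p under 0.05 at 1 µM, lower to the left in blue and higher to the right in orange, with dotted lines at 13.6% and 13.4% for all genes tested. PAX3-FOXO1 targets, myogenic factors and line identity genes have the longest bars to the left, and BET proteins and elongation and cAMP and CREB genes the longest to the right. The lists with the longest bars to the left share MYOD1, MYOG and SOX8, so their bars are not independent.

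Bone morphogenetic protein (BMP) genes held one of the deepest falls. BMP ligands bind paired receptors, which activate SMAD proteins and through them the ID genes, inhibitors of differentiation. BMP4, a ligand, was 36.3, 28.4, 37.1 and 26.4 CPM in DMSO 2 h, DMSO 6 h, NT 2 h and NT 6 h. It was 10.9 and 9.28 CPM at 100 nM and 2.52 and 1.99 CPM at 1 µM, for 2 h and 6 h. The controls and the 2 doses did not overlap. BMP4 was 15.1-fold lower at 1 µM (log2 -3.91 ± 0.13, adjusted p = 3.48e-07), 3.22-fold lower at 100 nM (adjusted p = 0.000227) and 5.35-fold lower over both (adjusted p = 0.0400).

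Of 28 BMP and ID genes, 18 fell and 1 rose at 1 µM, with a median of -0.90, and 9 fell and 1 rose over both doses. At 1 µM these are 64.3% and 3.57%, against 13.6% and 13.4% of all genes. Over both doses they are 32.1% and 3.57%, against 2.56% and 3.14%, the second near its share. Ligands BMP2, BMP5 and BMP7 changed by -2.16, -1.31 and -1.301, all past the threshold. BMP7 was 12.1 to 18.1 CPM in the controls, 9.70 and 3.74 CPM at 1 µM and 12.5 and 4.30 CPM at 100 nM, with the 100 nM library of 2 h inside the range of the controls. Antagonists fell too. BAMBI, a decoy receptor, was 26.9 to 36.5 CPM in the controls, 16.5 and 15.8 CPM at 100 nM and 7.95 and 8.53 CPM at 1 µM. NOG, FST and GREM1, secreted blockers of BMPs, fell by 1.85, 0.97 and 0.56. Target and feedback genes ID1, ID2, ID3, SMAD6 and SMAD7 fell by 1.76, 1.43, 1.68, 1.52 and 1.31. The receptors BMPR1A, BMPR2 and BMPR1B and the transducers SMAD4 and SMAD5 did not pass, at -0.04, -0.07, 0.85, 0.06 and 0.02. MSX1, a homeobox target of BMPs, rose from 4.18 to 6.89 CPM in the controls to 14.6 and 14.1 CPM at 1 µM and 11.6 and 8.12 CPM at 100 nM (log2 1.29 ± 0.20, adjusted p = 0.00228), while MSX2 fell by 0.95.

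In the Notch pathway ligands on one cell activate a receptor on the next, which releases a fragment that switches on HES and HEY repressors. HES1 was 16.5, 14.4, 13.9 and 15.4 CPM in DMSO 2 h, DMSO 6 h, NT 2 h and NT 6 h, 7.45 and 6.48 CPM at 100 nM and 2.97 and 2.99 CPM at 1 µM. It fell 5.38-fold at 1 µM (adjusted p = 1.41e-05) and 2.21-fold at 100 nM (adjusted p = 0.00980). The ligands DLL1 and JAG1 fell by 1.55 and 1.56 at 1 µM. LFNG, which adds sugars to Notch receptors, was 49.9 to 67.1 CPM in the controls, 25.7 and 4.98 CPM at 1 µM and 28.4 and 20.1 CPM at 100 nM. HEYL and HEY1 fell by 1.76 and 1.61. In all, 10 of 23 Notch genes fell and 2 rose at 1 µM, or 43.5% and 8.70% against 13.6% and 13.4% of all genes. The 2 became 1 without 1 µM 6 h and 3 without NT 6 h or either 100 nM library, the 10 became 15 without 1 µM 2 h, and 5 fell with all 20 libraries in the fit. The 2 that rose were HEY2, a HEY-family repressor at under 1 CPM in the controls, and MAML1, a coactivator of the Notch complex (110 to 122 CPM in the controls, 152 and 216 CPM at 1 µM, 141 and 167 CPM at 100 nM).

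Transcripts of receptor-kinase signalling fell in most members. At 1 µM 70.6% of the ERK feedback list and 54.2% of the immediate early list fell, against 13.6% of all genes. The shares that rose were 5.88% and 8.33%, against 13.4%. Of 17 genes of ERK feedback, 12 fell and 1 rose at 1 µM, and 0 rose by edgeR without DMSO 6 h, NT 6 h or 1 µM 6 h. SPRY1, SPRY2 and SPRY4, brakes on receptor kinases, fell by 2.38, 1.40 and 1.27, and the phosphatase genes DUSP4 and DUSP6 by 1.47 and 1.41. DUSP6 was 26.5 to 40.2 CPM in the controls, 22.3 and 24.9 CPM at 100 nM and 11.1 and 16.8 CPM at 1 µM. ETV4 and DUSP5 did not pass. Of 24 immediate early genes, 13 fell and 2 rose at 1 µM. JUN and ATF3, parts of AP-1 type dimers, fell by 1.88 and 1.96, FOSL2 by 1.04, and CCN2, a matrix signalling protein, by 1.38. JUNB, JUND, SRF and FOS did not pass, at -0.20, 0.01, 0.02 and 0.82.

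EGR1, a zinc finger factor of the same early class, moved the other way. It was 7.74, 5.03, 6.06 and 4.83 CPM in DMSO 2 h, DMSO 6 h, NT 2 h and NT 6 h, 13.03 and 7.44 CPM at 100 nM and 29.6 and 22.4 CPM at 1 µM. The 100 nM library of 6 h lay inside the range of the controls. EGR1 was 4.14-fold higher at 1 µM (adjusted p = 1.41e-05) and 2.91-fold higher over both doses (adjusted p = 0.0429). NR4A1 was the other early gene that rose, by 0.37 (adjusted p = 0.0476). The 2 risers became 1 without either DMSO library, NT 6 h, 1 µM 6 h or either 100 nM library, and with DESeq2 or its size factors.

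Some growth brakes fell at 1 µM. BTG2, which slows proliferation, was 70.8, 64.3, 72.7 and 64.8 CPM in DMSO 2 h, DMSO 6 h, NT 2 h and NT 6 h, 26.1 and 31.8 CPM at 100 nM and 12.2 and 14.8 CPM at 1 µM. It was 5.40-fold lower at 1 µM (adjusted p = 3.49e-06) and 2.41-fold lower at 100 nM (adjusted p = 0.00132). CDKN1A, the CDK inhibitor p21, was 81.7, 46.0, 74.3 and 53.2 CPM in the same order of controls, 45.6 and 30.4 CPM at 100 nM and 27.9 and 16.6 CPM at 1 µM. Its controls were lower at 6 h than at 2 h, and each A485 library lay below the controls of its own time. Of 27 p53 targets and growth brakes, 8 fell and 4 rose at 1 µM, or 29.6% and 14.8%, the second near the 13.4% of all genes. GADD45A, GADD45B, GADD45G and PLK2 fell by 1.305, 1.33, 2.21 and 2.52. MDM2, BAX and PPM1D, well-known p53 targets, did not pass, at -0.17, -0.01 and 0.10. SESN2, a stress-induced regulator of growth, rose from 19.1 to 21.3 CPM in the controls to 33.4 and 23.2 CPM at 100 nM and 43.1 and 40.7 CPM at 1 µM. Of the 4 risers, 1 was left without 1 µM 6 h, DMSO 6 h or NT 6 h.

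Of 34 S phase genes, 0 fell and 5 rose at 1 µM, or 14.7%, near the 13.4% of all genes. The 5 became 3 without 1 µM 6 h, either DMSO library or NT 6 h, and 3 fell without 1 µM 2 h and 2 without NT 2 h. ORC1, of the origin recognition complex, rose by 0.45 ± 0.07 (adjusted p = 0.00195). Of 33 mitosis genes, 2 fell and 2 rose, or 6.06% each way, below the shares of all genes. They became 0 and 0 by edgeR without 1 µM 6 h and 1 and 0 without DMSO 6 h or NT 6 h, and 1 rose without DMSO 2 h. CCNB1, CDK1, PLK1 and TOP2A lay between -0.08 and 0.14. MKI67 rose by 0.40 ± 0.10. CCND1, CCND2 and CCND3, the D-type cyclins, fell by 1.13, 0.60 and 0.53, and CCNE1 fell by 0.55 while CCNE2 rose by 0.37. The G1 list had 9 lower and 3 higher of 20, the second (15.0%) near the 13.4% of all genes, and 5 lower without 1 µM 6 h. The 3 risers became 1 without DMSO 6 h or either 100 nM library and 0 without NT 6 h or 1 µM 6 h. Of 13 apoptosis regulators, 2 fell and 1 rose at 1 µM. These are 15.4% and 7.69%, the first near the 13.6% of all genes, and DESeq2 called 2 and 0. BMF (a killer protein of the BH3-only group) was 79.5 to 145 CPM in the controls, 55.5 and 10.1 CPM at 1 µM and 68.3 and 35.6 CPM at 100 nM. BCL2, BCL2L1 and MCL1 did not pass, at -0.24, -0.14 and -0.05.

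Factors of mesenchyme and of other signalling routes fell as well. Of 16 mesenchymal factors, 10 fell and 0 rose at 1 µM. Of all genes, 13.6% fell and 13.4% rose. The share that fell was 62.5% of this list, 57.1% of the YAP and TEAD targets and 53.3% of the KLF factors. In these lists and in the WNT list below, a larger share fell and a smaller share rose than of all genes. TBX2, a T-box repressor, was 65.7 to 74.1 CPM in the controls, 42.6 and 34.9 CPM at 100 nM and 31.7 and 19.5 CPM at 1 µM. SNAI1 and SNAI2 fell by 1.09 and 0.93 and ZEB1 and ZEB2 by 0.56 and 1.49, while TWIST1 did not pass, at 0.15. Of 21 YAP and TEAD targets, 12 fell and 0 rose, among them AMOTL2, AJUBA and F3 besides CCN2. Of 15 KLF factors, 8 fell and 1 rose, with KLF4 at -2.58, KLF10 at -1.45 and KLF15 at 1.03. KLF15 lost its call without either DMSO library, NT 2 h, 1 µM 2 h or either 100 nM library. Of 20 WNT genes, 10 fell and 1 rose, and 0 rose by edgeR without either DMSO library, NT 6 h or 1 µM 6 h and 2 without 1 µM 2 h. WNT5A was 42.1 to 47.5 CPM in the controls and 22.6 and 24.96 CPM at 1 µM. The WNT count was 5 without 1 µM 6 h and 6 without DMSO 6 h or NT 6 h, and on TPM the list's median over both doses turned from -0.27 to 0.02, below that of all genes.

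LGR4, a receptor that sustains WNT signalling, fell alike at both doses. It was 38.3, 40.7, 41.0 and 41.1 CPM in DMSO 2 h, DMSO 6 h, NT 2 h and NT 6 h, 31.4 and 29.9 CPM at 1 µM and 29.7 and 28.7 CPM at 100 nM. The log2 change was -0.49 ± 0.08 at 1 µM and -0.49 ± 0.08 at 100 nM (adjusted p = 0.00347 and 0.0444).

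Metabolic lists showed smaller changes. At 1 µM 44.4% of the cholesterol list, 48.0% of the CITED2 and HIF list and 37.5% of the clock list fell. The share of all genes was 13.6%. Of 27 genes of cholesterol synthesis, 12 fell and 0 rose at 1 µM, with a median of -0.23, and 5 fell over both doses. Those 5 are 18.5%, against 2.56% of all genes. HMGCS1, an early enzyme of the pathway, was 129 to 165 CPM in the controls, 110 and 115 CPM at 100 nM and 99.3 and 105 CPM at 1 µM. INSIG1, part of the sterol sensor, was 87.6 to 109 CPM in the controls and 60.1 and 66.9 CPM at 1 µM. The count of 12 was 6 without 1 µM 6 h, DMSO 6 h or NT 6 h and 7 without DMSO 2 h, and on TPM the median over both doses turned from -0.15 to 0.12, below that of all genes. Of 25 genes of the CITED2 and HIF target list, 12 fell and 0 rose, and 4 fell without 1 µM 6 h. CITED2 itself, which competes with HIF for CBP and p300, fell by 2.29, DDIT4 by 1.62 and NDRG1 by 0.57. VEGFA, PGK1 and HK2 did not pass, at -0.36, -0.21 and -0.03. On TPM this list's median over both doses turned from -0.18 to 0.12. Of 16 clock genes, 6 fell and 0 rose, with BHLHE40 at -1.69 and PER1 at -0.91. CLOCK, CRY1 and CRY2 did not pass.

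Of 36 ribosomal proteins, 7 fell at 1 µM, or 19.4% against 13.6% of all genes, by at most 0.33 in log2 (RPS3, 595 to 634 CPM in the controls, 507 and 534 CPM at 1 µM). This count was 0 without DMSO 6 h or NT 6 h, 1 without DMSO 2 h or 1 µM 6 h, and 14 without NT 2 h. Of 36 ribosome biogenesis genes, 1 fell, NPM1, by 0.24, but 22 fell without 1 µM 2 h and 7 without NT 2 h, and 0 by edgeR without either DMSO library, NT 6 h or 1 µM 6 h. Of 30 genes of the respiratory chain, NDUFB8 alone was called, with a rise of 0.305. It lost its call without any 1 of the 4 controls or either 1 µM library, and with DESeq2. Of 21 collagens and matrix genes, 3 fell (COL1A2, SPARC and LOXL2), or 14.3%, near the 13.6% of all genes, and 11 without 1 µM 2 h. This count was 0 without 1 µM 6 h and 1 without either DMSO library or NT 6 h. Of 21 histone genes, 2 fell and 0 rose at 1 µM, or 9.52% lower, below the 13.6% of all genes. H1-3 fell by 0.32. H2AC19 was also called, but it was listed at 0 in 5 of the 8 libraries and at 14.9 to 16.4 CPM in the others, and histone genes share near-identical sequence, so its value is uncertain.

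In the IGF list 5 of 16 genes fell and 2 rose at 1 µM, or 31.2% and 12.5% against 13.6% and 13.4% of all genes. IRS1, an adaptor of insulin-type receptors, fell from 600 to 733 CPM in the controls to 298 and 126 CPM at 1 µM, while IRS2 rose by 0.79. Among 19 heat shock genes, HSPA1A, HSPA1B, DNAJB1 and BAG3 rose at 1 µM by 0.53, 0.77, 0.37 and 0.42. Of this list 21.1% rose and 10.5% fell, against 13.4% and 13.6% of all genes. The list had 4 risers with all libraries and 1 without 1 µM 6 h. HSPB1 and HSPB8 fell by 0.39 and 1.25, and these 2 fallers became 5 without 1 µM 2 h, 4 without NT 2 h and 3 without DMSO 2 h.

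FLRT3, a cell surface adhesion protein, fell over both doses. It was 40.3, 32.4, 48.1 and 35.0 CPM in DMSO 2 h, DMSO 6 h, NT 2 h and NT 6 h, 18.7 and 15.2 CPM at 100 nM and 5.04 and 4.61 CPM at 1 µM. It was 3.69-fold lower over both doses and 8.54-fold lower at 1 µM (adjusted p = 0.0400 and 8.40e-07). PIM1, a growth-promoting kinase, went from 8.93 to 10.7 CPM in the controls to 2.91 and 2.43 CPM at 1 µM and 3.30 and 4.98 CPM at 100 nM. MCHR1, a peptide receptor, SH2D3C, a signalling adaptor, BDKRB2, a bradykinin receptor, and EDN3, an endothelin, were among the 12 largest falls over both doses at levels under 20 CPM. TLE3, a corepressor used by Notch and WNT targets, was 61.2 to 85.4 CPM in the controls, 42.2 and 10.1 CPM at 1 µM and 49.4 and 19.8 CPM at 100 nM. None of these overlapped between treated and control libraries, as was so for 7.28% of genes on the low side.

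Rises were smaller and lay at lower levels. MXD1 was 5.88, 4.78, 7.88 and 2.86 CPM in DMSO 2 h, DMSO 6 h, NT 2 h and NT 6 h, 12.1 and 10.3 CPM at 100 nM and 23.9 and 29.8 CPM at 1 µM. It was 3.46-fold higher over both doses and 4.82-fold higher at 1 µM (adjusted p = 0.0400 and 0.000255). GCH1, which makes a cofactor of amine synthesis, was 1.74 to 3.97 CPM in the controls and 7.57 and 18.99 CPM at 1 µM. ZNF233, ZNF44 and ZNF774 were among the named risers, all under 10 CPM. NPIPB12 and NUTM2A also rose but belong to families of near-identical genes whose reads may be split between copies.

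HEXIM1, which holds the elongation kinase P-TEFb inactive, led the BET proteins and elongation genes. It was 32.1, 29.3, 31.4 and 27.1 CPM in DMSO 2 h, DMSO 6 h, NT 2 h and NT 6 h, 53.7 and 37.9 CPM at 100 nM and 76.4 and 80.1 CPM at 1 µM. All 4 A485 libraries lay above the controls, and the log2 change was 0.98 ± 0.19 over both doses and 1.29 ± 0.10 at 1 µM (adjusted p = 0.0400 and 4.08e-05). Of 20 genes, 8 rose and 1 (ELL2) fell at 1 µM, and 2 fell without NT 2 h or 1 µM 2 h. With all 8 libraries 40.0% of this list rose and 5.0% fell, against 13.4% and 13.6% of all genes. BRD2, MED1 and CCNT2 rose by 0.42, 0.40 and 0.41. CDK9 did not pass, at 0.01. The 8 became 3 without 1 µM 6 h, 4 without DMSO 6 h or NT 6 h, and 5 without either 100 nM library.

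Of 18 cAMP and CREB genes, 7 rose and 3 fell at 1 µM, or 38.9% and 16.7% against 13.4% and 13.6% of all genes. CREB1, a factor that recruits CBP, rose by 0.31 and its coactivators CRTC1, CRTC2 and CRTC3 by 0.49, 0.48 and 0.33. The fallers were DUSP1, PER1 and PPARGC1A. The 7 became 2 without 1 µM 6 h, 3 without DMSO 6 h, and 4 without DMSO 2 h or 100 nM 6 h. Of 18 HDACs and sirtuins, the deacetylases that remove acetyl groups, 5 fell and 2 rose. These are 27.8% and 11.1%, the second near the 13.4% of all genes. HDAC5 was 126 to 141 CPM in the controls, 97.4 and 28.8 CPM at 1 µM and 107 and 55.7 CPM at 100 nM. SIRT1 and SIRT7 rose by 0.54 and 0.77. The 5 became 1 without 1 µM 6 h and 2 without DMSO 6 h or NT 6 h.

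Genes whose symbol starts with ZNF, most of them zinc finger repressors, were added as a list after their values were seen. At 1 µM, 194 of 460 tested rose and 23 fell, or 42.2% and 5.00%, against 13.4% and 13.6% of all genes. Their median log2 change was 0.32. Over both doses 73 of 457 rose and 5 fell.

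With all 20 libraries in edgeR's fit, which shares the spread over all compounds, other lists also had fewer calls at 1 µM. The members that fell numbered 11 of the BMP and ID list, 6 of ERK feedback, 6 of WNT, 5 of cholesterol synthesis, 5 of the CITED2 and HIF targets, 4 of the YAP and TEAD targets, 3 of the mesenchymal factors, 3 of the G1 list, 2 of clock, 1 of muscle structure, 1 of ribosomal proteins and 0 of HDACs and sirtuins. Those that rose numbered 3 of BET and elongation, 3 of cAMP and CREB, 0 of the G1 list and 0 of heat shock.

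The 2 doses shared their controls, so their values are given side by side and the doses were compared directly. At 100 nM the 44 lower genes included BMP4, BTG2, FLRT3, HES1, MYCN, MYC and CDKN1A. The median log2 change of the 44 was -0.739. Of the 6 higher, CYP3A5, TAS2R30 and APCDD1L were at low levels in the controls. These counts were 1 and 0 by edgeR without either 100 nM library, 17 and 1 without either DMSO library, 15 and 1 without NT 6 h, 91 and 170 without NT 2 h, 504 and 193 without 1 µM 2 h, and 506 and 172 without 1 µM 6 h. Between the doses, 208 genes were lower and 25 higher at 1 µM than at 100 nM (1.80% called, 1.61% lower and 0.194% higher). MYCN and MYC had the smallest p. GAS1, a growth arrest protein, was 290 to 341 CPM in the controls, 278 and 250 CPM at 100 nM and 75.8 and 82.7 CPM at 1 µM, a difference between doses of -1.80 ± 0.10 (adjusted p = 3.20e-05). It was picked for this difference after its values were seen. The 208 and 25 were 1311 and 326 without 1 µM 2 h, 99 and 6 without 100 nM 2 h, and 55 and 1 without 100 nM 6 h. The 25 became 10 without DMSO 2 h, 16 without NT 6 h, and 11 without DMSO 6 h or 1 µM 6 h.

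**Figure D3:**
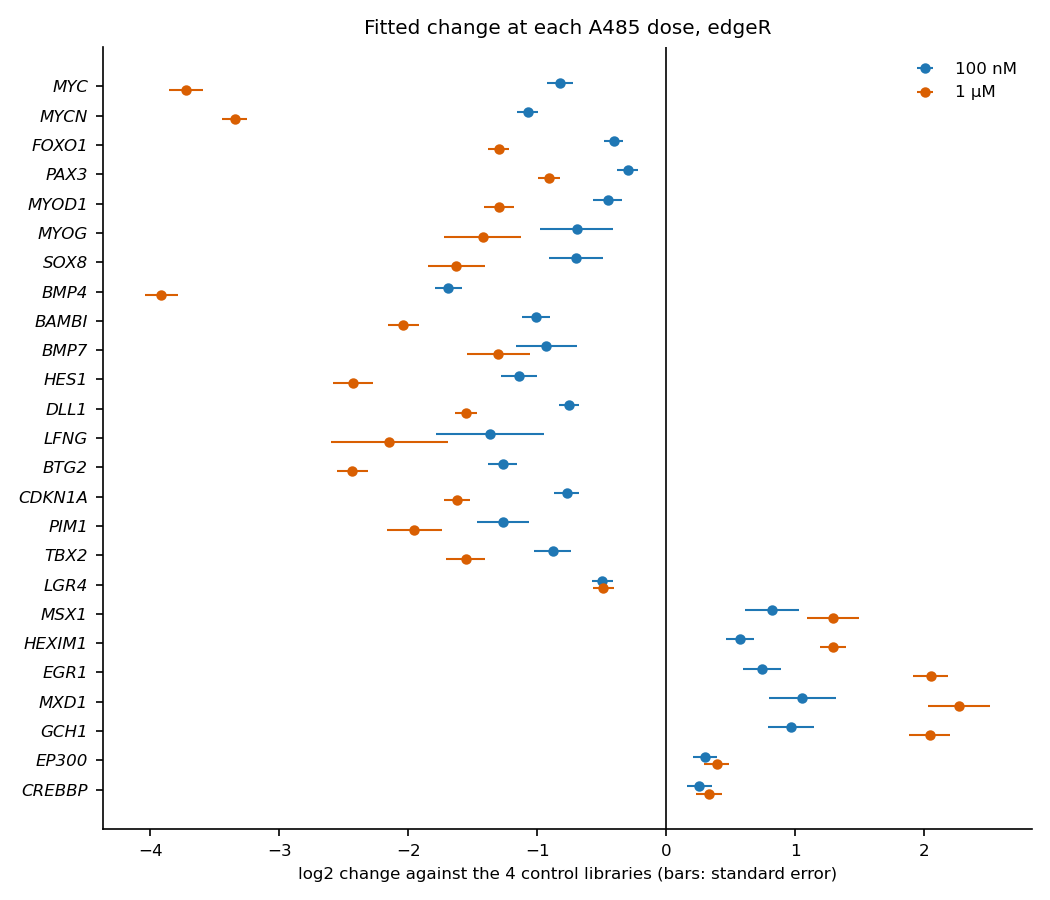
Fitted log2 change against the 4 shared controls for 25 genes, with 100 nM in blue and 1 µM in orange, points for the edgeR estimate and bars for its standard error. MYC, MYCN and BMP4 have the widest gaps between the doses, and LGR4 stands at -0.49 at both.

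Few or no genes passed a test of whether the A485 effect differed between 6 h and 2 h, depending on the tool. The fit held both doses as 1 level, so the gap between the doses counted as spread. With all 8 libraries edgeR called 0 of 12919 (0% called), with 1489 at an unadjusted p under 0.05, and DESeq2 called 5 lower and 6 higher. edgeR called 6 lower and 4 higher without 1 µM 6 h, and 1068 and 282 without 100 nM 6 h. For A485 against the controls of each time, the same fit of 8 libraries gave unlike counts among 12919 genes. edgeR called 0 at 2 h (1605 at an unadjusted p under 0.05). It called 737 lower and 769 higher at 6 h (4572 unadjusted). With the doses pooled, the 0 does not show that no gene moved at 2 h. MYC was 5.76 CPM at 1 µM for 2 h, against 75.6 and 63.4 CPM in DMSO 2 h and NT 2 h. Counts at each time are no test of the difference between times. Some genes were lower at 6 h than at 2 h in the libraries themselves. BMF was 79.5 to 145 CPM in the controls and 10.1 CPM in the 1 µM library of 6 h against 55.5 CPM at 2 h. That range of the controls covers both times, so their own change with time is not set apart here. The genes lower over both doses had a median log2 ratio to the controls of their time of -0.529 at 2 h and -0.764 at 6 h with 1 µM, and of -0.336 and -0.469 with 100 nM. Those higher had 0.529 and 0.734 with 1 µM, and 0.319 and 0.396 with 100 nM. These sets were chosen on the same libraries, so the medians describe them only.

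No gene passed a test between the kinds of control, which does not show that they were alike. The fit pooled the A485 doses, so the gap between the doses counted as spread, and few libraries of each kind were compared. Between NT and DMSO, edgeR called 0 of 12919 genes (0% called), with 114 at an unadjusted p under 0.05, and DESeq2 called 0. With DMSO alone as control, A485 over both doses gave 0 calls (2667 unadjusted), and with NT alone 0 (1838 unadjusted).

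The series gave 3 further compounds, dCBP, IHK-44 and JQAD, at the same doses and times. They were compared with A485 over the same doses and times in 1 fit of all 20 RNA-seq libraries, in which all compounds share the 4 controls. Each compound was 1 level in this fit, with both doses pooled. Of 13001 genes, 126 were lower and 84 higher with A485 than with dCBP (1.62% called, 0.969% lower and 0.646% higher), 84 lower and 93 higher than with IHK-44 (1.36% called, 0.646% lower and 0.715% higher), and 335 lower and 553 higher than with JQAD (6.83% called, 2.58% lower and 4.25% higher). MYCN changed by -3.50 with dCBP, -4.33 with IHK-44 and 0.01 with JQAD in log2. It was 2.52 higher with A485 than with IHK-44 (adjusted p = 0.0291) and 1.82 lower than with JQAD (adjusted p = 0.0305). Its difference from dCBP was 1.69 ± 0.53 (adjusted p = 0.0928). By dose, in the fit of 8 libraries, A485 changed MYCN by -1.07 at 100 nM and -3.34 at 1 µM. Whether the compounds differ at a single dose was not tested. BTG2 differed by 0.20 ± 0.21 from dCBP (adjusted p = 0.582) and by -1.73 from JQAD (adjusted p = 0.000949). HEXIM1 rose more with dCBP, by 1.75, than with A485 (difference -0.78 ± 0.18, adjusted p = 0.0420), both doses pooled. By dose, in the fit of 8 libraries, A485 changed HEXIM1 by 0.57 at 100 nM and 1.295 at 1 µM.

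Promoter sequence was described for genes tested at 1 µM. RefSeq entries (GRCh38.p14) matched 10523 of 12919 genes, or 81.5%, each with 300 bases around the start. No test was run. Of genes with a CpG-rich promoter (GC at least 50% and CpG observed over expected at least 0.6), 12.2% fell and 14.4% rose. Of the others, 17.7% fell and 10.4% rose. CGGAAG, on either strand, the core of many ETS factor sites, was in 32.5% of promoters. Of those genes 7.84% fell and 15.2% rose, against 15.9% and 12.9% without it. The share that fell was also smaller with CGGAAG among CpG-rich promoters (7.5% against 14.9%) and in each of 4 bins of mean CPM, from 3.51% against 7.18% in the lowest to 12.3% against 26.9% in the highest. TATAAA, on either strand, was in 5.89% of promoters, of which 21% of genes fell, against 12.8% without it. TGACGTCA, the CREB site, was in 3.25%, of which 12.9% fell and 14.3% rose. A match is a description of letters and not a bound site.

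Promoters of 3 genes that fell and 1 that rose are shown with CG in capitals, to set CpG-poor beside CpG-rich sequence. They were chosen after their values were seen. The 3 fallers have an observed over expected CpG of 0.227, 0.546 and 0.429 (FLRT3, MYCN and MYOG), unlike most of the genes lower at 1 µM with an entry, of which 72.7% are CpG rich. Each is the 250 bases before the start, 5′ to 3′ on the gene's strand. FLRT3 is at chr20:14337613-14337862 (minus), MYCN at chr2:15940300-15940549 (plus), MYOG at chr1:203086013-203086262 (minus) and EP300 at chr22:41092342-41092591 (plus).
FLRT3: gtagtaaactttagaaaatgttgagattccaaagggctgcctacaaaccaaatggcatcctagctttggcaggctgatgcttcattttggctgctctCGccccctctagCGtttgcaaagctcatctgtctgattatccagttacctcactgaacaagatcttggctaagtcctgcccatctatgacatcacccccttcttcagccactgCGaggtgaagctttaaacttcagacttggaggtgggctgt
MYCN: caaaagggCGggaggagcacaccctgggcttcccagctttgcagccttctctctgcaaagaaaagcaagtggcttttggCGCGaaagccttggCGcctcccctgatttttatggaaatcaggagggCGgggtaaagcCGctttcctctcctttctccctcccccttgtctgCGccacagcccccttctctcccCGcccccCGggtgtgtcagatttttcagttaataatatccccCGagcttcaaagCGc
MYOG: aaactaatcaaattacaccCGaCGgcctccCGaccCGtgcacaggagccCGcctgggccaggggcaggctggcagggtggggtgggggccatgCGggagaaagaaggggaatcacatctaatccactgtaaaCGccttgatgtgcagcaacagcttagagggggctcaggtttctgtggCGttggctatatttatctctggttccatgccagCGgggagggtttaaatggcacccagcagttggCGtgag
EP300: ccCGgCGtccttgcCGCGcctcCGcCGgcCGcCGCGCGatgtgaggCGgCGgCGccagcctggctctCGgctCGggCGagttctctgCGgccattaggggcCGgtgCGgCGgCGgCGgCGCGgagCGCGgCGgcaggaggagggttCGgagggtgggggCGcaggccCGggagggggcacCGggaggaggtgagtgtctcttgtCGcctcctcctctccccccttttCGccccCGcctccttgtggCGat
CG occurs 3 times in the FLRT3 stretch, 11 in MYCN, 10 in MYOG and 35 in EP300.

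Promoters of 3 genes that rose are shown with a motif in capitals: CGGAAG or its reverse complement in ORC1 at chr1:52404424-52404673 (minus) and EYA3 at chr1:28088611-28088860 (minus), and TATAAA or its reverse complement in HEXIM1 at chr17:45148225-45148474 (plus).
ORC1: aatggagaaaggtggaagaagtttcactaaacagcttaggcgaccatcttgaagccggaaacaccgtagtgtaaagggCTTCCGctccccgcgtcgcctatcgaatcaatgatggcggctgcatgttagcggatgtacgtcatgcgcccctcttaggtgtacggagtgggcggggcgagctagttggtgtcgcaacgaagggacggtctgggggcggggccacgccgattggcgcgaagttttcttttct
EYA3: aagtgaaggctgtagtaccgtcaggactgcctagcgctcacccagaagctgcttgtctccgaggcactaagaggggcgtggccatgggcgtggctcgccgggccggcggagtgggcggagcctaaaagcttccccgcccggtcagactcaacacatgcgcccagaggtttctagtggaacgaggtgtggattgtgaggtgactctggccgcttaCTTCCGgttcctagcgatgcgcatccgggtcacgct
HEXIM1: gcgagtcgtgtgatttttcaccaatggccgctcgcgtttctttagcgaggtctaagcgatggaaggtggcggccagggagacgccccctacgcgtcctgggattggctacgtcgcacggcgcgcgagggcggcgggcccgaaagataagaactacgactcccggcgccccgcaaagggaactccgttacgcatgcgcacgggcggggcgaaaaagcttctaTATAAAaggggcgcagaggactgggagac
The 3 examples were chosen after their values were seen. HEXIM1 rose although a larger share of genes with TATAAA fell.

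**Figure D4:**
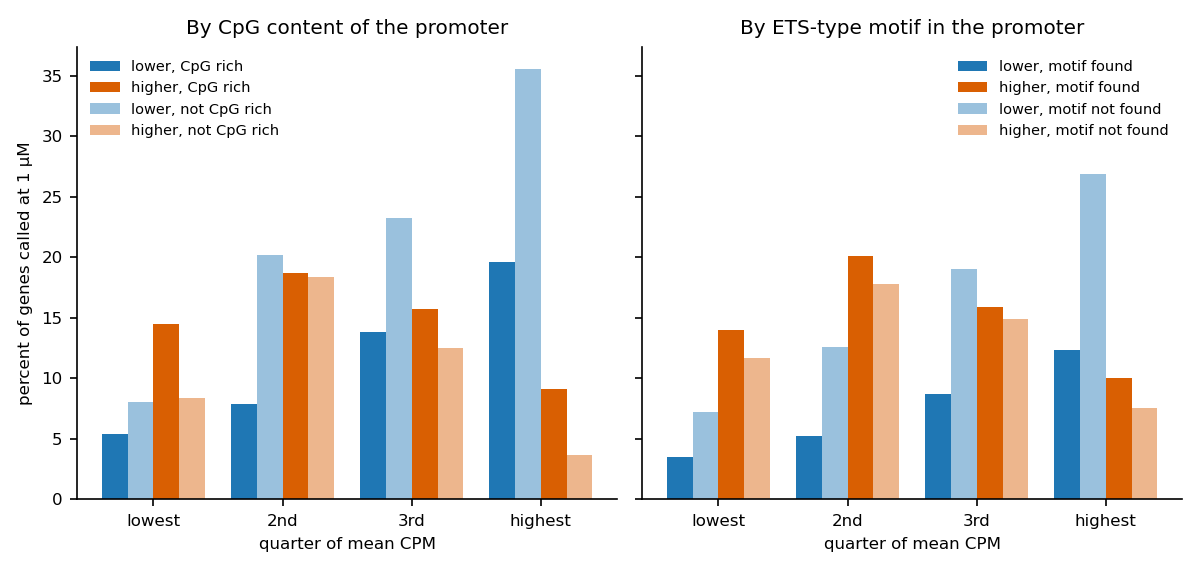
Percent of genes called lower (blue) and higher (orange) at 1 µM in each of the 4 bins of mean CPM, split by CpG content on the left and by the ETS-type motif CGGAAG on the right, with dark bars for CpG-rich promoters or the motif and pale bars for the rest. In each bin the dark blue bar is below the pale one, for the motif from 3.51% against 7.18% in the lowest bin to 12.3% against 26.9% in the highest.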

How the data were processed

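RNA was measured by RNA-seq in 20 RH4 libraries, of which 8 (A485, DMSO and NT) are described and 12 serve in 1 fit with other compounds. The ChIP-seq and ChRO-seq samples were not used here. Per the submitters' processing notes, STAR 2.5.3a, RSEM 1.3.3 and hg38 were among the tools and builds. The authors deposited RSEM expected counts, TPM, FPKM and CPM per coding gene (18980 genes). Deposited FPKM values were not tested. No column of unmapped samples was used. Expected counts, 88.0% to 88.8% of them exactly whole as deposited, were rounded.

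edgeR 4.0.16 in R 4.3.3 was run with its default expression filter, TMM scaling and the quasi-likelihood test, with a time term, in 3 main fits: A485 as 1 level (5 residual degrees of freedom), each dose as a level (4), and A485 by time (4). p-values were adjusted by Benjamini-Hochberg over all genes tested, with a threshold of 0.05. A per-library log2 ratio is log2(CPM + 1) minus the mean of DMSO and NT of its time. Alternatives used DESeq2 1.42.0, limma 3.58.1 on log2(CPM + 1) and on the deposited TPM as log2(TPM + 1), other filters, controls and terms, and each library left out in turn, where a lone library was assumed to vary like the others. On simulated counts, 200 genes were changed by 1 in log2. The test recovered 98% over both doses (12521 genes), 96% at 1 µM (12569), 95% at 100 nM (12574) and 67% for time (12588). These shares describe those counts only, and recovery in the RH4 libraries was not tested. In the libraries, edgeR's count over both doses was 0 without DMSO 2 h, DMSO 6 h, NT 6 h or 1 µM 2 h. MYCN and MYC, which differed between the doses, did not pass over both doses by edgeR (adjusted p = 0.0543 and 0.0922).

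Genes were named by rule: the line identity list, the 12 largest falls and rises over both doses (mean CPM at least 3, same direction in 4 libraries), the 5 largest at 1 µM, and up to 4 members per list that passed, or 2 where none did. Other list members were named after their values were seen. The members and gene lists were chosen with earlier results of these data known. A planned description of promoters in the called genes was void, since 77.9% of those lower over both doses had an entry, below 80%. Shares called per promoter class replaced it, and these and the ZNF list were added after the data were seen. The first listed promoter was used for the 29.6% of genes with several. Some members of the lists are not reported here by name.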

Additional observations from a re-analysis of the deposited data

Results flagged for a closer look

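The effect of A485 differed by a test of the difference itself in 4 settings. At 1 µM against 100 nM, 233 genes passed. Between A485 and other compounds at the same doses and times, with doses pooled, 210 genes differed from dCBP, 177 from IHK-44 and 888 from JQAD. JQAD itself gave 0 calls against the controls in that fit. Each count is from edgeR with adjusted p under 0.05.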

How the results depend on the processing

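Over both doses, A485 gave 609 lower genes with no filter on low counts, 1004 lower and 935 higher with DESeq2, 940 higher with limma on CPM and 4488 higher with limma on TPM. It gave 0 lower and 0 higher with DMSO alone as control (2667 at an unadjusted p under 0.05), with NT alone (1838) and with no time term (3292), and 1985 and 1931 with dose as a number. With only the 1 µM libraries it gave 1495 and 1433, and with only the 100 nM libraries 506 and 189, both added after seeing the data. DESeq2 gave 133 and 33 at 100 nM, 318 lower between doses, and 5 and 6 for time. With all 20 libraries the counts were 449 and 642 at 1 µM, 2 and 0 at 100 nM, and 8 and 0 between doses. Leaving out each library in turn gave 0 to 815 lower and 0 to 845 higher over both doses, 766 to 2448 and 542 to 2071 at 1 µM, 1 to 506 and 0 to 193 at 100 nM, 55 to 1311 and 1 to 326 between doses, and 0 to 1068 and 0 to 282 for time. NT against DMSO gave 0 in each of them. With CpG-rich promoters defined at 0.75, 15.8% of the other genes fell and 12.2% rose. On log2(TPM + 1) the sign turned for FGFR4 (0.0376), CDH15 (0.0374), H1-10 (0.0853), H1-2 (0.0934), RPS3 (0.0341), RPLP0 (0.123), FBL (0.0994), RRP9 (0.0509), NDUFA4 (0.136), PSAT1 (0.0588), SPARC (0.0744), LOXL2 (0.113), DKK3 (0.0431), WIPI1 (0.0251) and SIRT2 (0.00934). The causes of these changes were not tested. No paired analysis was possible because the labels give no replicate numbers; time, a term in the main fits, set treated against control libraries of the same time instead. Each condition had 1 library, which limits precision; what depth adds to this was not tested.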
